A study of Mus musculus with 6 samples.

Results

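Interferon-stimulated genes are the genes that a cell switches on when interferon binds its receptors. The 43 genes described here were chosen by symbol. They comprise the Ifit, Mx and Oas antiviral genes, Isg15 and its protease, nucleic acid sensors, interferon transcription factors, other antiviral effectors, interferon-inducible GTPases and antigen processing genes. All 43 were found among the 47729 genes of the count tables, and all 43 passed the filter on low counts.

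RNA was sequenced from 3 wild-type (WT) and 3 leene-KO libraries of lung endothelial cells (ECs). leene is a long non-coding RNA of ECs, and its genomic region was deleted in all cells of the KO mice, which were on the C57BL6 background. Both groups were male mice of 14 weeks on normal chow, infused with angiotensin II (AngII), a peptide that raises blood pressure, at 1000 ng/kg/min by osmotic pump for 2 weeks. No group without AngII was analysed here, so each value below is a level under AngII. The labels describe CD31-selected cells pooled from 3 mice of a group, while the methods of the study describe selection by CD144. The sources do not tell whether each library stands for 1 mouse or for a pool, and p-values measure the spread between these libraries, which may be technical.

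Type I interferons signal through the receptor chains Ifnar1 and Ifnar2 and the kinases Jak1 and Tyk2. The complex ISGF3, which holds STAT2 and IRF9, then binds the interferon-stimulated response element (ISRE) in the promoters of genes such as Ifit1 and Isg15. Interferon gamma uses a separate receptor and acts through the gamma-activated site (GAS), as in the promoter of Irf1. Many genes answer to both interferons, and ECs carry the receptors for both.

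Promoter stretches of 6 of the 43 genes are shown because they hold the letters of the elements that define these routes. They are from RefSeq (GRCm38.p6), are written 5′ to 3′ on the strand of the gene and lie upstream of the annotated first base of each gene. Capitals mark matches to the ISRE letters, 2 copies of GAAA with any 2 bases between them (TTTC on the opposite strand), and to the GAS letters TTCNNNGAA, which are their own reverse complement. The first 3 genes belong to the antiviral response and the next 2 to the GTPases that interferon gamma induces.

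Ifit1, chr19:34640769-34640828 (+): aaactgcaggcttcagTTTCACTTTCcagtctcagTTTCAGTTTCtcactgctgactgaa
Ifit3, chr19:34583365-34583424 (+): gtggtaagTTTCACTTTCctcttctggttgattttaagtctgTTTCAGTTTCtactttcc
Isg15, chr4:156200856-156200915 (-): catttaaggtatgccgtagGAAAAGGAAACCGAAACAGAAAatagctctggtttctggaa
Gbp7, chr3:142530227-142530295 (+): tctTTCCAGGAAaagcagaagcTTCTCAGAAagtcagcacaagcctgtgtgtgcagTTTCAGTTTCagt
Igtp, chr11:58199491-58199550 (+): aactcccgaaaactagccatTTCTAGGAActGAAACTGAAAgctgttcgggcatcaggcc
Irf1, chr11:53769898-53769957 (+): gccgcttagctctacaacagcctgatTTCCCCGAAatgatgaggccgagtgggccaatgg

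In Isg15, 3 matches to the ISRE letters overlap in 1 run, while Ifit1 and Ifit3 each hold 2 separate matches. Gbp7 and Igtp hold both kinds of match, and Irf1 holds a GAS match without an ISRE match. Windows from 250 bases before to 50 bases after the start site were found for 31 of the 43 genes. ISRE letters on either strand stood in 15 of these 31 genes (48.4%), against 3.99% of the 27025 genes with a window. GAS letters stood in 9 of the 31 (29%), against 9.55%. The ISRE letters did not set the type I genes apart from the gamma-induced genes, since they stood in 4 of the 7 Ifit, Mx and Oas genes with a window and in 5 of 5 of the genes Gbp2, Gbp3, Gbp7, Igtp and Irgm1. A match is a string of letters and not a measured binding site, and no factor binding was measured in these libraries.

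**Figure D1:**
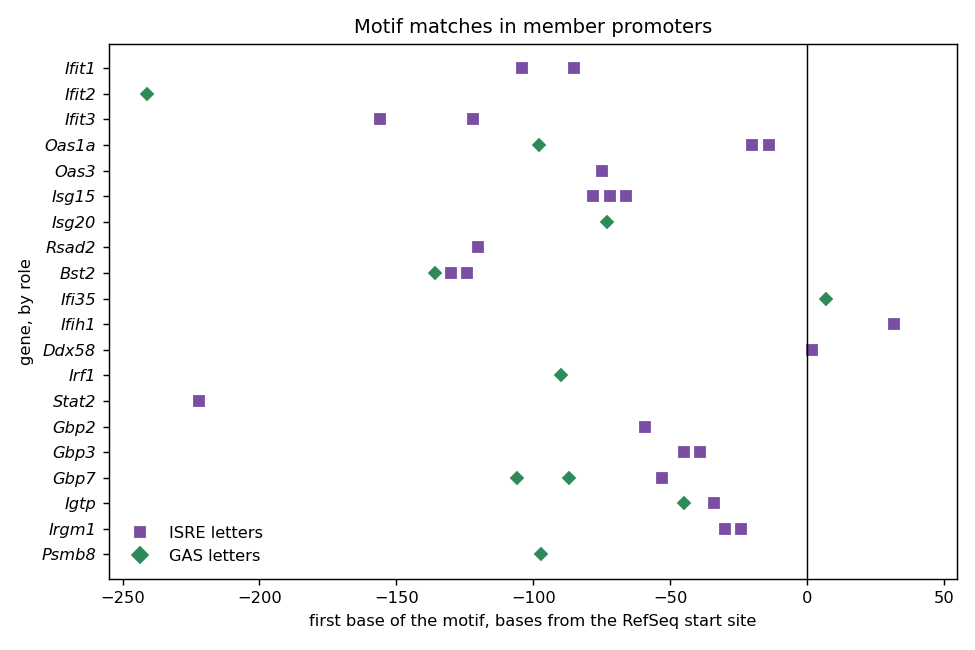
Positions of ISRE letters (purple squares) and GAS letters (green diamonds) in the promoter windows of the 20 interferon-stimulated genes that hold either, with the first base of each match in bases from the RefSeq start site on the x axis and genes ordered by role on the y axis. The ISRE matches of Gbp2, Gbp3, Gbp7, Igtp and Irgm1 lie within 60 bases before the start, and those of Ifit1 and Ifit3 lie farther upstream.

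The libraries held between 24464324 and 35184063 counts. Mitochondrially encoded genes took 37.4% to 46.2% of them in 5 libraries and 54.5% in WT replicate 3. Markers of ECs were present as labelled: all 12 were counted in every library, with summed levels of 1793 to 3368 CPM (each count relative to the scaled size of its library) in WT and 2216 to 3520 CPM in KO. Markers of alveolar type II cells, the surfactant-making epithelium of the lung, summed to more than the EC markers in every library, at 4934, 46390 and 14400 CPM in WT against 36570 to 44950 CPM in KO. So did markers of club cells of the airway epithelium, at 15350, 40400 and 19910 CPM in WT against 33560 to 56770 CPM in KO. WT replicate 1 also stood apart, with the lowest of these sums and the largest scaling factor (1.37, against 0.874 to 1.04 in the others). Markers of B cells summed to 6.46 to 16.4 CPM in WT against 59.2 to 65.3 CPM in KO, with all 5 higher in every KO library than in any WT library. T cell markers, of which 4 of 5 were likewise separate, summed to 1.64 to 3.14 CPM in WT against 5.44 to 6.83 CPM in KO. Plasmacytoid dendritic cells are known for their output of type I interferon. Their markers summed to 2.86 to 8.16 CPM in WT against 8.76 to 10.1 CPM in KO. However, each of these 5 markers overlapped between groups, and Pacsin1 was at 0 in 1 library of each group. In every KO library Cox6a2 was the largest part of this sum. Cox6a2 was at 0.8078, 5.05 and 2.903 CPM in WT against 5.244, 5.996 and 4.553 CPM in KO. Siglech was at 0.5385, 0.8222 and 0.8429 CPM in WT against 1.805, 0.515 and 1.552 CPM in KO. In KO replicate 2 Siglech was thus below every WT library. In bulk RNA, fewer cells of a type and less RNA per cell cannot be told apart, and the part of any of these cells in the values below was not tested.

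The 43 interferon-stimulated genes were all expressed, across a wide range. Compared per length as FPKM (CPM per kilobase of exon, averaged over the 6 libraries), Bst2 was the most abundant at 44.6 FPKM and Oas3 the least at 0.0757 FPKM, a ratio of 589. Bst2 encodes tetherin, which holds budding virus particles at the cell surface. Next came Ifi27l2a at 21.9 FPKM, Gbp2 at 20.4, Ifi27 at 18.7, Psmb8 at 18.0, Irf1 at 17.7, Ifi35 at 13.1, Trim25 at 11.8, Gbp3 at 9.95 and Iigp1 at 9.61. The level exceeded 5 FPKM for 24 genes and lay under 1 FPKM for 6 genes, namely Mx1, Mx2, Oas2, Oas3, Oasl1 and Rsad2. The median coefficient of variation over the 43 genes was 13.2% in WT and 11.2% in KO. Over all genes, the WT libraries differed more from each other (chi-square per degree of freedom 182 to 311) than the KO libraries did (40.3 to 53.6). By that measure WT replicate 2 was closer to each KO library (48.4 to 80.4) than to the other WT libraries.

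**Figure D2:**
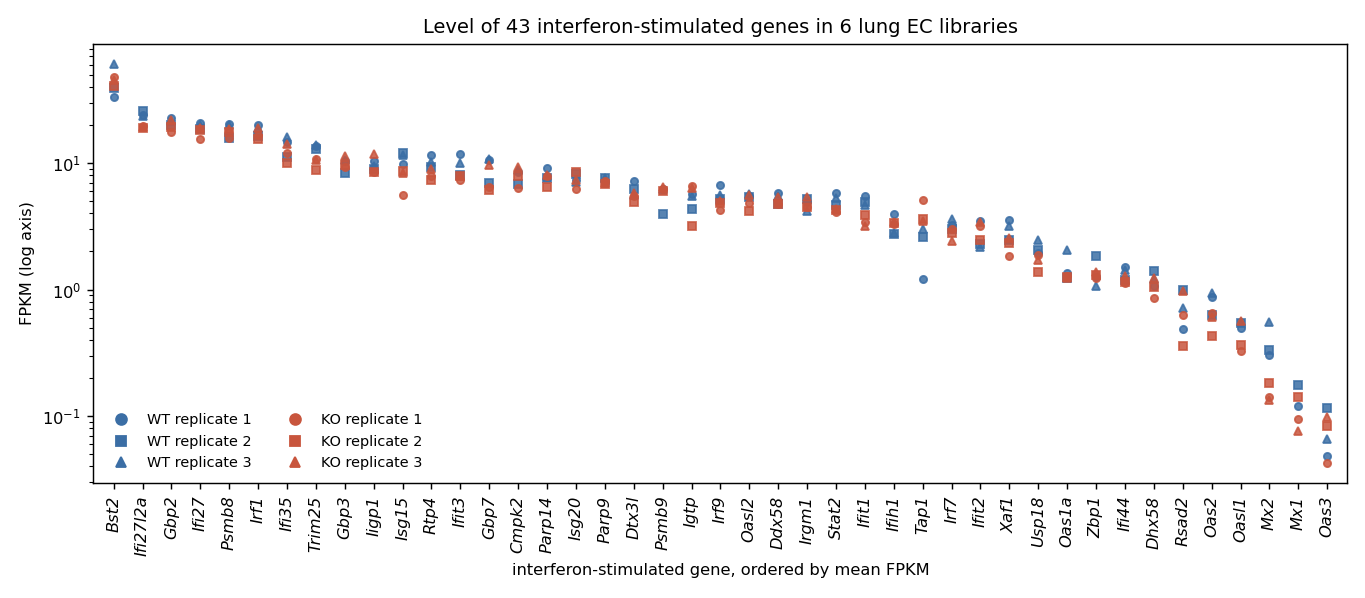
Level of each of the 43 interferon-stimulated genes in each library, in FPKM on a log axis, with genes ordered by mean FPKM from Bst2 (44.6) to Oas3 (0.0757), WT libraries in blue and KO libraries in red. Marker shapes are the 3 replicates, and Mx1 has no point for WT replicate 3, where its count was 0. Points of both genotypes lie together for most genes, and Tap1 in WT replicate 1 lies apart.

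The comparison of KO with WT asked whether the 43 genes differed with leene genotype in lung ECs under AngII. None of the 43 genes was a differentially expressed gene (DEG) at an adjusted p under 0.05 by edgeR's quasi-likelihood (QL) test with Benjamini-Hochberg (BH) adjustment over the 14625 genes tested, where 0.109% of all genes were called. The lowest BH-adjusted p of the QL test among them was 0.341, for Ifit1. DESeq2 called 1.21% of all genes and none of the 43. The fitted values nevertheless leaned one way. The fitted log2 fold change (KO over WT) was below 0 for 37 of the 43 genes (86.0%), against 45.9% of all genes tested. The median log2 fold change was -0.16 over the 43 genes and 0.03 over all genes. Per library, the mean log2 CPM of the 43 genes was 3.802, 3.728 and 3.782 in WT against 3.552, 3.535 and 3.725 in KO. KO replicate 3 thus all but reached WT replicate 2. The median log2 CPM overlapped, at 4.374, 3.877 and 4.128 in WT against 4.183, 4.13 and 4.259 in KO. Genes of 1 pathway can vary together between libraries, so the 43 genes are not independent values. Every KO library lay below every WT library for 11 genes (25.6%), against 9.2% of all genes, and above every WT library for 1 gene, Tap1 (2.33%), against 8.59%. Before adjustment, the QL test gave a p under 0.05 to 7 genes with lower KO values (16.3%, against 4.68% of all genes) and to 1 with higher values (2.33%, against 5.62%).

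The 95% confidence interval of the log2 fold change lay within 1 of 0 for 35 of the 43 genes. The exceptions were Mx1, Mx2, Oas2, Oas3, Oasl1, Isg15, Rsad2 and Tap1, so for these the data allow a difference of 2-fold. Scaling by total counts alone moved the median of all genes from 0.03 to -0.13. Relative to that median, the 43 genes stood at -0.20 under either scaling. The number of genes with every KO library below every WT library was 7 under total-count scaling (16.3%, against 6.9% of all genes), 23 without WT replicate 2 (53.5%, against 20.2%), 12 without WT replicate 1 (27.9%, against 13.6%), 12 without WT replicate 3 (27.9%, against 14.1%) and 21 without KO replicate 3 (48.8%, against 13.7%).

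**Figure D3:**
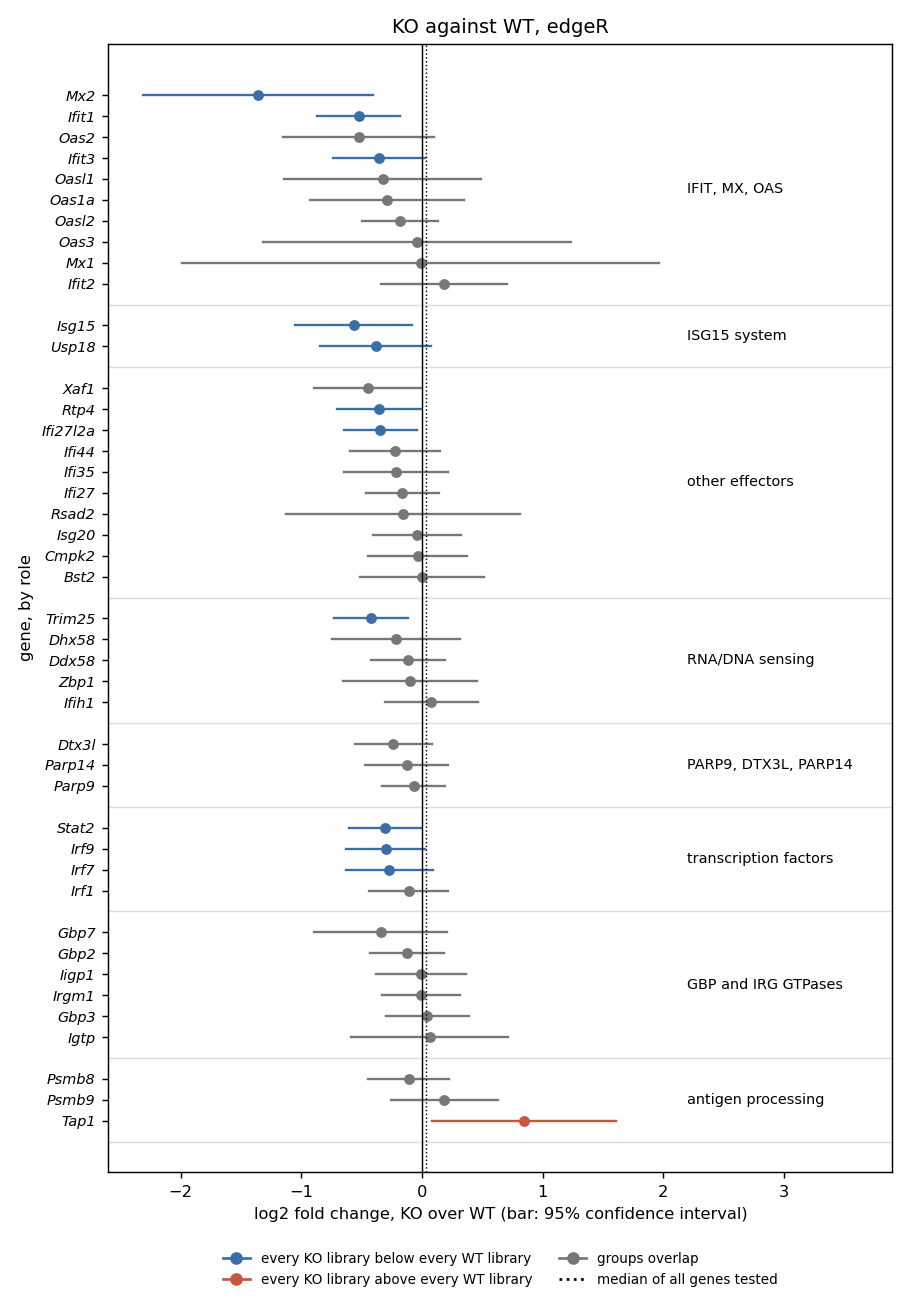
Log2 fold change of KO over WT for the 43 interferon-stimulated genes, grouped by role, with bars for the 95% confidence interval of the fit. Blue marks the 11 genes with every KO library below every WT library, red marks Tap1 with every KO library above, and the dotted line is the median of all genes tested (0.03).

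The Ifit, Mx and Oas genes are the classic antiviral response to type I interferon, and 9 of these 10 had a fitted log2 fold change below 0, with a median of -0.31. The groups did not overlap for Ifit1, Ifit3 and Mx2. Ifit1, which binds viral RNA that lacks a host-type cap, was at 14.6, 13.1 and 12.3 CPM in WT against 9.03, 10.4 and 8.45 CPM in KO. Each KO library was thus below the lowest WT library, with a log2 fold change of -0.53 (SE 0.15). Ifit3 was at 20.7, 14.1 and 17.4 CPM in WT against 12.9, 13.9 and 13.9 CPM in KO. The gap between the groups was narrow (log2 fold change -0.36, SE 0.17, QL test BH-adjusted p = 0.504). Ifit2, the neighbor of Ifit3 on chromosome 19, was at 13.6, 8.96 and 8.52 CPM in WT against 12.4, 9.64 and 13.4 CPM in KO. Its groups overlapped, and its log2 fold change was 0.18 (SE 0.22), the only value above 0 among these 10 genes and one that was -0.04 under total-count scaling.

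Mx genes encode dynamin-like GTPases that block virus replication, and common laboratory strains of mice carry defective alleles of both. The annotation lists Mx2 as a polymorphic pseudogene, and its level was 1.102, 1.204 and 2.013 CPM in WT against 0.516, 0.662 and 0.483 CPM in KO, from 41 to 45 counts per WT library and 12 to 18 per KO library. This was the largest difference among the 43 genes, with a log2 fold change of -1.36 (SE 0.41, 95% confidence interval -2.31 to -0.40), but it did not pass the QL test (BH-adjusted p = 0.365). Mx1 had at most 22 counts in a library and none in WT replicate 3, and its interval spanned -1.99 to 1.97. Oas enzymes make the short RNA-like signal that activates RNase L. Of the 5 Oas and Oasl genes, Oas2 had the lowest value, with 3.87, 2.82 and 4.21 CPM in WT against 2.92, 1.91 and 2.73 CPM in KO (log2 fold change -0.53, SE 0.27). Oasl2, the most abundant of them per length, was at 34.96, 34.5 and 36.4 CPM in WT against 31.0, 26.7 and 35.6 CPM in KO. Oas1a, Oas3 and Oasl1 had log2 fold changes of -0.29 (SE 0.27), -0.04 (SE 0.55) and -0.33 (SE 0.35). All 5 genes overlapped between groups. Reads shared by near-identical copies were not counted, which leaves the levels of the Oas1, Ifit and Gbp families uncertain.

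Isg15 and Usp18 form a pair in which Isg15, a ubiquitin-like protein, is attached to other proteins and Usp18 removes it and also damps the type I receptor. Both were lower in every KO library than in any WT library. Isg15 was at 7.42, 9.07 and 8.71 CPM in WT against 4.21, 6.51 and 6.28 CPM in KO (log2 fold change -0.56, SE 0.21, QL test BH-adjusted p = 0.448). Usp18 was at 5.41, 5.76 and 6.88 CPM in WT against 5.24, 3.83 and 4.76 CPM in KO (log2 fold change -0.38, SE 0.20). The lowest WT value and the highest KO value of Usp18 differed little.

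Among the sensors of foreign nucleic acid, Trim25 was the gene whose groups separated. Trim25 is a ubiquitin ligase that acts on the RNA sensor RIG-I, the product of Ddx58. Its level was 78.9, 74.0 and 79.4 CPM in WT against 62.3, 50.4 and 60.7 CPM in KO. The mean was 77.4 ± 2.97 CPM (SD, n = 3) in WT, and the log2 fold change was -0.42 (SE 0.13, QL test BH-adjusted p = 0.374). Ddx58 itself was at 41.3, 33.4 and 39.1 CPM in WT against 33.6, 33.3 and 38.0 CPM in KO, with overlapping groups. Ifih1, which encodes the RNA sensor MDA5, Dhx58, which encodes their regulator LGP2, and Zbp1, a sensor of left-handed nucleic acids, had log2 fold changes of 0.08, -0.21 and -0.10 with standard errors of 0.17 to 0.24.

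The transcription factors of the response had small values of 1 sign. For 3 of the 4, every KO library was below every WT library. Under total-count scaling this held for Irf7 alone. Stat2, a subunit of ISGF3, was at 25.4, 20.4 and 23.2 CPM in WT against 18.1, 18.7 and 19.1 CPM in KO (log2 fold change -0.31, SE 0.13). Irf9, the DNA-binding subunit of ISGF3, was at 35.9, 27.8 and 30.1 CPM in WT against 23.1, 26.0 and 27.1 CPM in KO (log2 fold change -0.30, SE 0.14). Irf7, which drives interferon alpha genes, was at 9.87, 9.07 and 10.9 CPM in WT against 9.03, 8.42 and 7.31 CPM in KO (log2 fold change -0.27, SE 0.16). The BH-adjusted p of the QL test was 0.482 for Stat2, 0.508 for Irf9 and 0.577 for Irf7. Irf1, the factor with the GAS match shown above, was at 79.6, 64.7 and 74.7 CPM in WT against 66.8, 61.3 and 74.9 CPM in KO, with overlapping groups and a log2 fold change of -0.11 (SE 0.14).

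Of the other effectors, Rtp4 and Ifi27l2a had groups that did not overlap. Ifi27l2a, a small hydrophobic protein of the Ifi27 family, was at 11.04, 11.95 and 10.96 CPM in WT against 9.03, 8.76 and 8.97 CPM in KO (log2 fold change -0.34, SE 0.13, QL test BH-adjusted p = 0.459). Rtp4 was at 18.3, 14.6 and 15.9 CPM in WT against 12.5, 11.6 and 14.2 CPM in KO (log2 fold change -0.35, SE 0.15, QL test BH-adjusted p = 0.482). Within each group the 3 libraries of Ifi27l2a lay close together, and those of Rtp4 left a small gap between the groups. Ifi27, the neighbor of Ifi27l2a on chromosome 12, was at 30.3, 27.3 and 29.2 CPM in WT against 22.6, 26.9 and 28.0 CPM in KO, with overlapping groups. Xaf1, a binding partner of the apoptosis inhibitor XIAP, was at 16.7, 11.6 and 14.8 CPM in WT against 8.68, 10.9 and 12.1 CPM in KO (log2 fold change -0.45, SE 0.19), and its highest KO library was above its lowest WT library. Ifi35 was at 25.5, 19.4 and 27.8 CPM in WT against 20.9, 17.4 and 24.3 CPM in KO, again with overlap. Bst2, the most abundant of the 43 genes, was at 25.7, 30.2 and 46.5 CPM in WT against 36.5, 31.1 and 34.6 CPM in KO. All KO values of Bst2 lay within the WT range, and its fitted value was 0.00 (SE 0.22). Isg20, an exonuclease, Rsad2, which encodes viperin, Ifi44 and Cmpk2, a mitochondrial nucleotide kinase, had values from -0.23 to -0.03 with overlapping groups. Parp9 and its partner Dtx3l, which together modify ubiquitin, and Parp14, an ADP-ribosyltransferase, had values of -0.07, -0.24 and -0.13, and their groups overlapped.

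The guanylate-binding proteins (Gbp) and immunity-related GTPases (Igtp, Irgm1 and Iigp1) attack the vacuoles in which intracellular pathogens live and are strongly induced by interferon gamma. None of these 6 genes had separate groups, and their median log2 fold change was -0.01. Gbp2 was at 57.04, 49.95 and 53.9 CPM in WT against 43.9, 48.5 and 55.3 CPM in KO (log2 fold change -0.12, SE 0.13). Gbp3 was at 34.2, 27.1 and 34.7 CPM in WT against 30.2, 31.6 and 37.2 CPM in KO (log2 fold change 0.05, SE 0.15). KO replicate 3 held the highest KO value of both genes. Gbp7 had the lowest fitted value of the 6 and a wide spread, with 58.9, 39.2 and 60.4 CPM in WT against 36.0, 34.3 and 54.7 CPM in KO (log2 fold change -0.34, SE 0.24). Igtp was at 11.4, 8.75 and 11.1 CPM in WT against 13.4, 6.47 and 12.9 CPM in KO (log2 fold change 0.07, SE 0.28). For Gbp7 and Igtp the second replicate of each group was the lowest. Irgm1, which regulates the other members of its family, was at 28.8, 30.4 and 24.4 CPM in WT against 26.3, 26.0 and 31.1 CPM in KO (log2 fold change -0.01, SE 0.14). Iigp1 was at 32.2, 28.2 and 29.8 CPM in WT against 26.4, 26.6 and 36.6 CPM in KO (log2 fold change -0.01, SE 0.16).

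Set side by side, the type I genes and the gamma-induced genes leaned unequally, but the contrast between them did not separate the libraries. The mean log2 CPM of the 10 Ifit, Mx and Oas genes was 1.89, 1.89 and 1.70 in WT and 1.48, 1.57 and 1.64 in KO. By this measure no KO library reached a WT library. The mean was 1.83 ± 0.11 (SD, n = 3) in WT and 1.56 ± 0.08 (SD, n = 3) in KO. The median log2 CPM of the same 10 genes overlapped, at 1.68, 1.39 and 2.04 in WT and 1.44, 1.14 and 1.37 in KO. Their summed CPM did not overlap, with 79.9 to 93.4 in WT and 67.7 to 79.3 in KO. For Gbp2, Gbp3, Gbp7, Igtp and Irgm1, the mean log2 CPM was 5.04, 4.76 and 4.98 in WT and 4.80, 4.62 and 5.09 in KO, with the highest and the lowest value both in KO. The first mean log2 CPM minus the second was -3.15, -2.87 and -3.28 in WT and -3.33, -3.05 and -3.45 in KO. These ranges overlapped. The medians of the fitted log2 fold changes were -0.31 for the first set and -0.01 for the second, which differ by -0.30. Relative to the median of all genes they stood at -0.34 and -0.04, and under total-count scaling at -0.31 and -0.05. The 2 sets also differ in level, and 6 of the 10 Ifit, Mx and Oas genes were under 5 CPM.

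**Figure D4:**
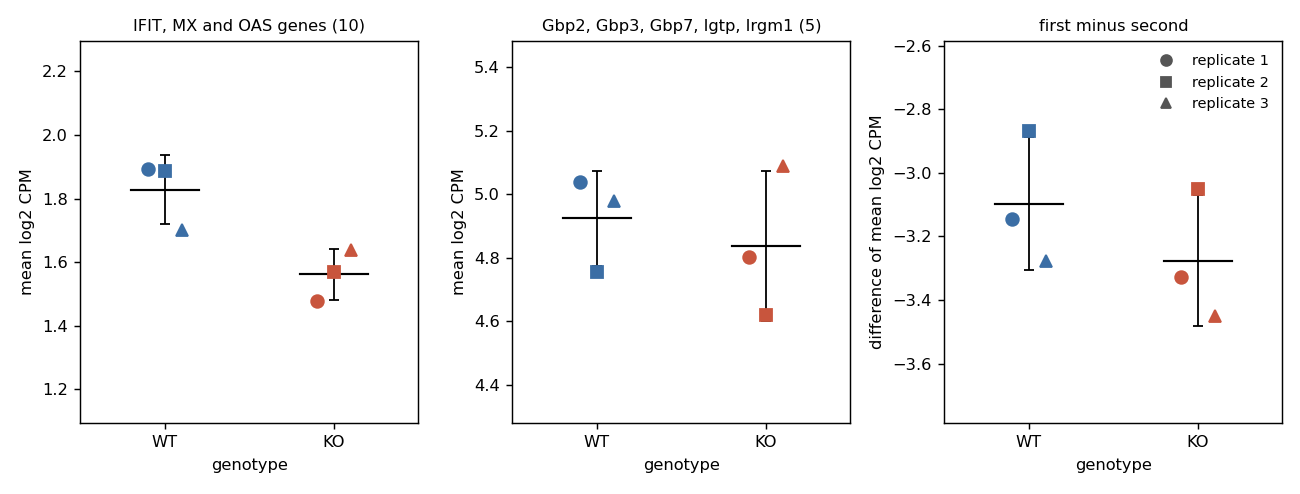
Mean log2 CPM per library of the 10 Ifit, Mx and Oas genes (left) and of Gbp2, Gbp3, Gbp7, Igtp and Irgm1 (middle), and the first minus the second (right), by genotype, with marker shapes for replicates. Horizontal lines are group means and bars are SDs over 3 libraries. The KO values are all below the WT values in the left panel (1.48 to 1.64 against 1.70 to 1.89), and the groups overlap in the other panels.

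Of the 3 antigen processing genes, Tap1 had separate groups, and Psmb8 and Psmb9 did not. Tap1, a subunit of the transporter that loads peptides for MHC class I, was at 6.61, 14.2 and 16.4 CPM in WT against 27.8, 19.8 and 19.1 CPM in KO. It was the only one of the 43 genes with every KO library above every WT library (log2 fold change 0.85, SE 0.33, QL test BH-adjusted p = 0.462). WT replicate 1 was the lowest, and without it the log2 fold change was 0.53 (QL test BH-adjusted p = 0.503). That library also had the lowest sums of EC and alveolar type II markers, and the part of these cells in the Tap1 value was not tested. Psmb8 and Psmb9 encode immunoproteasome subunits and lie beside Tap1 on chromosome 17. Psmb8 was at 55.5, 43.2 and 54.97 CPM in WT against 43.3, 48.5 and 50.6 CPM in KO (log2 fold change -0.11, SE 0.14). Psmb9 was at 22.9, 14.4 and 22.7 CPM in WT against 22.7, 22.0 and 23.5 CPM in KO (log2 fold change 0.19, SE 0.19, and -0.00 under total-count scaling). Both overlapped between groups.

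Few counts fell on the interferon genes themselves. Of 21 interferon genes, 19 had 0 counts in all 6 libraries. For Ifnb1, a single-copy gene among these, a count of 0 allows levels of up to 0.0734 to 0.14 CPM per library. Most of the others are near-identical Ifna copies, for which 0 counts set no such limit because reads with several alignments were not counted. The exceptions were Ifng with 5 counts and Ifnz with 1 count over the 6 libraries. Limits of this kind cover counting error only.

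Other genes of the pathway were taken from a list of 120 genes, of which 118 were matched and 91 tested. None passed the QL test, an unadjusted p under 0.05 was reached by 8 genes in each direction (8.79%, against 5.62% of all genes higher and 4.68% lower in KO), and the median log2 fold change was -0.00. DESeq2 called none of the 21 genes named below. The groups did not overlap for these 21, with KO above WT for 10 (11%, against 8.59% of all genes) and below it for 11 (12.1%, against 9.2%). These shares are close to those of all genes, and the values that follow are a description of single genes. Among 10 receptor and kinase genes, 8 were fitted above 0, and both chains of the type I receptor had separate groups. Ifnar1 was at 14.3, 27.8 and 18.5 CPM in WT against 32.1, 28.3 and 28.9 CPM in KO (log2 fold change 0.56, SE 0.23, QL test BH-adjusted p = 0.478). Ifnar2 was at 21.4, 33.8 and 32.1 CPM in WT against 41.4, 41.1 and 45.5 CPM in KO (log2 fold change 0.55, SE 0.19, QL test BH-adjusted p = 0.396). WT replicate 1 was again the lowest for both, and without it the values were 0.35 and 0.37. Ifnar1 passed the QL test without WT replicate 2 (log2 fold change 0.83, BH-adjusted p = 0.0354), where 5.29% of all genes were called. The gap between the groups of Ifnar1 was narrow, with 27.8 CPM in WT replicate 2 against 28.3 CPM in KO replicate 2. Whether the receptor values bear on those of the 43 genes was not tested.

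Tlr3 and Tlr9, nucleic acid receptors of the endosome, were also higher in every KO library. Tlr3, a receptor for double-stranded RNA, was at 8.05, 13.1 and 15.2 CPM in WT against 21.1, 18.9 and 18.1 CPM in KO (log2 fold change 0.68, SE 0.23). Tlr9, a receptor for bacterial DNA that B cells and plasmacytoid dendritic cells carry, was at 0.441, 2.00 and 1.59 CPM in WT against 5.76, 2.76 and 4.17 CPM in KO (log2 fold change 1.67, SE 0.54, QL test BH-adjusted p = 0.385). Tlr9 passed the QL test under total-count scaling (log2 fold change 1.60, BH-adjusted p = 0.0173), where 0.841% of all genes were called. B cell markers, as given above, were higher in the same 3 libraries, and their part in the Tlr9 value was not tested. Ikbke, an interferon-inducing kinase, was also higher in every KO library (log2 fold change 0.69, SE 0.32), while the adapter Myd88 was at 20.7 to 26.5 CPM in WT against 18.2 to 18.5 CPM in KO (log2 fold change -0.33, SE 0.14).

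Of the remaining lists, the inhibitor Socs3, which blocks JAK kinases, was at 15.5, 20.2 and 17.8 CPM in WT against 12.9, 13.1 and 11.4 CPM in KO (log2 fold change -0.52, SE 0.15, QL test BH-adjusted p = 0.343). Irf2, a repressor of Irf1 targets, was at 48.9 to 53.4 CPM in WT against 38.0 to 45.5 CPM in KO (log2 fold change -0.26, SE 0.12). Among 11 class I presentation genes the median was 0.41, and H2-T23, a nonclassical class I gene, was at 21.4, 62.3 and 53.9 CPM in WT against 86.1, 72.9 and 74.4 CPM in KO (log2 fold change 0.76, SE 0.35). Like Tap1, H2-T23 was lowest in WT replicate 1. Among 11 further Gbp and GTPase genes the median was -0.01, and Gbp5 alone had separate groups, at 18.0 to 20.3 CPM in WT against 11.9 to 15.3 CPM in KO (log2 fold change -0.47, SE 0.14).

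Of 40 further interferon-stimulated genes, 26 were fitted below 0 and 14 above, with a median of -0.12. Lower in every KO library were Lgals9, a galectin (log2 fold change -0.50, SE 0.14), and Ifitm3, which blocks virus entry (-0.38, SE 0.16). Ifitm3 was abundant, at 253, 203.9 and 249 CPM in WT against 176, 179 and 190 CPM in KO. Ifitm2 (-0.30), Herc6 (-0.48), Helz2 (-0.53), Pnpt1 (-0.37) and Apol9b (-0.92) were likewise lower in every KO library. Higher in every KO library were Lgals3bp (0.84), Oas1c (0.91), Tor3a (0.43) and Ifi203 (0.40). These 11 genes had QL test BH-adjusted p-values from 0.319 to 0.512.

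**Figure D5:**
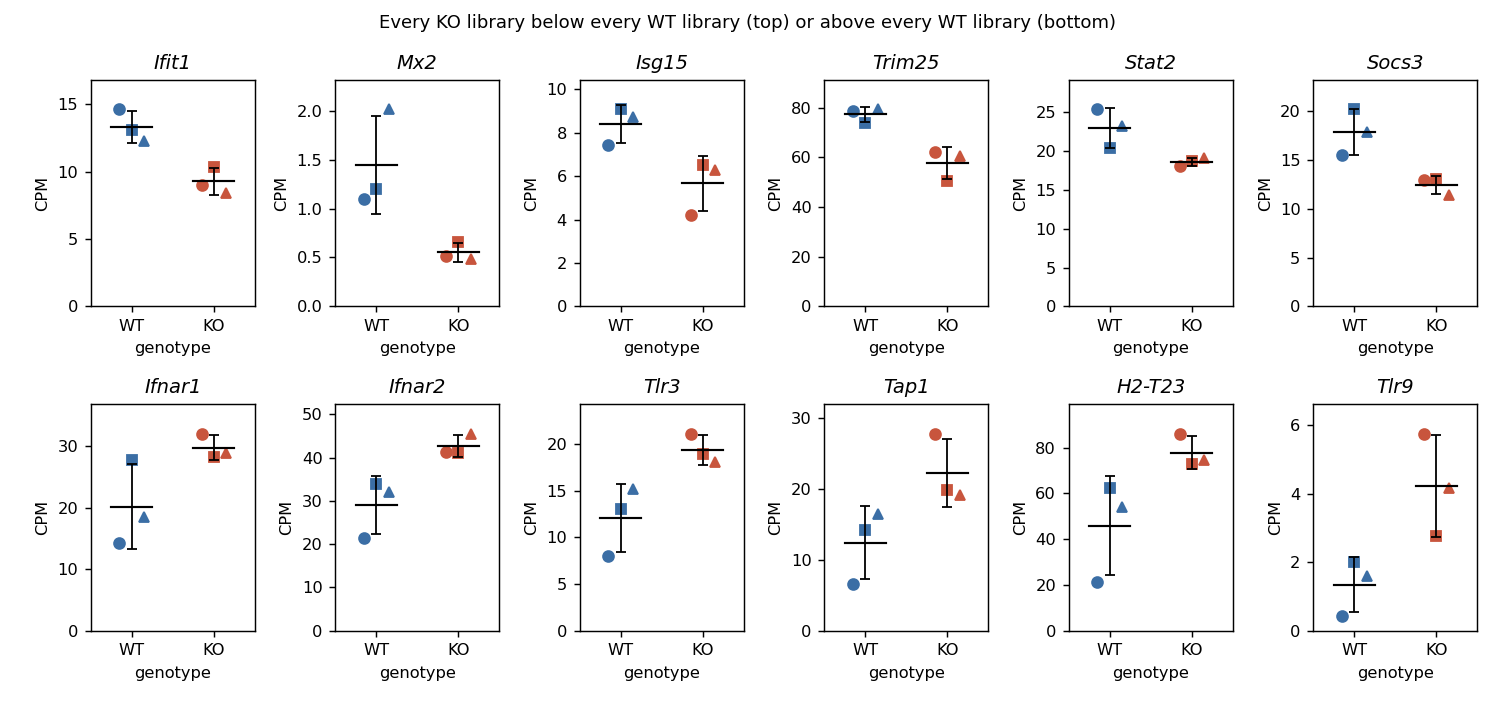
CPM per library of 6 genes with every KO library below every WT library (Ifit1, Mx2, Isg15, Trim25, Stat2 and Socs3, top) and 6 with every KO library above (Ifnar1, Ifnar2, Tlr3, Tap1, H2-T23 and Tlr9, bottom), WT in blue and KO in red. Marker shapes are replicates, horizontal lines are group means and bars are SDs over 3 libraries. The circle of WT replicate 1 is the lowest WT value in each of the bottom panels.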

How the data were processed

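Values came from RNA-seq of 6 lung EC libraries, grouped by the genotype in the sample labels. The deposited values were raw counts of reads per gene, which the authors had not normalized. The submitters' processing notes name STAR 2.5.4b, and the file headers name featureCounts 2.0.0 with gene models of GRCm38 from Ensembl release 84. Reads with several alignments were not counted, which lowers the counts of near-identical genes. Symbols came from GENCODE M21 (47224 of 47729 genes). The transcripts of the deleted leene region were not analysed here, so the genotype labels were not checked against them.

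Genes were kept by filterByExpr with default settings, scaled by TMM and tested in R 4.3.3 with edgeR 4.0.16 (glmQLFit, glmQLFTest, genotype as the only term, legacy setting), with Benjamini-Hochberg adjustment over the 14625 genes that entered the test and a threshold of 0.05. The quasi-likelihood test was tried on simulated counts first. CPM and FPKM use TMM-scaled library sizes, FPKM also the exon length in the tables, and log2 CPM a prior count of 2. Promoter windows were searched on both strands. The methods of the study name DESeq2, used here (1.42.0) as an alternative beside limma-voom (limma 3.58.1), the likelihood ratio test, other dispersion settings, other scalings, other filters, a replicate block and the removal of each library. Separation counts under other settings were added after the data had been seen.

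The genes and lists were chosen with earlier results of these data known. The rule for named genes gives every one of the 43 genes, per library where groups do not overlap, where the unadjusted p is under 0.05 or where it is among the 10 most abundant, and of the other pathway genes those that meet either of the first 2 criteria. Ifit2, Oas2, Oasl2, Xaf1, Ddx58, Gbp7, Igtp, Irgm1 and Psmb9 are given per library beside these. No pair of libraries held identical counts. Counting precision is that of 24464324 to 35184063 counts per library.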

Additional observations from a re-analysis of the deposited data

How the results depend on the processing

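None of the 43 genes was called in any of 18 alternative fits at an adjusted p under 0.05. The lowest BH-adjusted p was 0.0868 by edgeR's QL test, for Ifit3 without WT replicate 2. In the main fit 8 of the 43 genes had an unadjusted p under 0.05. Across the alternatives this number ran from 3, without KO replicate 1 or KO replicate 2, to 12, without WT replicate 2. Without 1 library at a time, the median log2 fold change lay between -0.27 and -0.15 over the 43 genes, between -0.41 and -0.26 over the Ifit, Mx and Oas genes and between -0.11 and 0.01 over Gbp2, Gbp3, Gbp7, Igtp and Irgm1, with a difference of the last 2 between -0.35 and -0.19. Under total-count scaling the Gbp, Igtp and Irgm1 median was -0.18. Genes with every KO library below every WT library numbered 7 under that scaling, where Ifit3, Stat2, Irf9 and Rtp4 overlapped between groups. Ifit3 also overlapped under upper-quartile scaling. Without 1 library the genes with lower, separate KO groups numbered 12 to 23. Signs were kept under every alternative for 29 of the 43 genes, including the 11 with separate, lower KO groups. Total-count scaling gave Ifit2 -0.04, Ifih1 -0.14, Gbp3 -0.13, Igtp -0.12 and Psmb9 -0.002. Mx1 was 0.006 by DESeq2, 0.67 by limma-voom, 0.018 by the likelihood ratio test, 0.005 without a filter and 0.34 with the replicate block. Oas3 was 0.028 by limma-voom and Igtp -0.00. Bst2 was 0.048 by limma-voom, 0.006 with at least 10 counts in every library and 0.041 with the replicate block. Without 1 library, values ran from -0.17 to 0.27 for Bst2, -0.18 to 0.075 for Cmpk2, -0.10 to 0.092 for Gbp3, -0.057 to 0.265 for Ifih1, -0.13 to 0.30 for Igtp, -0.18 to 0.048 for Iigp1, -0.11 to 0.022 for Irgm1, -0.19 to 0.042 for Isg20, -0.53 to 0.55 for Mx1, -0.31 to 0.37 for Oas3, -0.04 to 0.30 for Psmb9, -0.58 to 0.12 for Rsad2 and -0.26 to 0.13 for Zbp1. The cause of these changes was not tested. The replicate numbers did not pair the libraries (correlation of deviations -0.08, 0.22 and 0.01 for the numbers 1 to 3), and not every library correlated best with its own number. With the replicate block the 3 medians were -0.19, -0.30 and -0.01, their difference was -0.30, and 4 of the 43 genes had an unadjusted p under 0.05 and none an adjusted one. Depth limits the 9 genes under 5 CPM.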
